A study of Mus musculus with 8 samples.

Results

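The 48 proteasome genes described here encode the subunits, activators, inhibitor and assembly factors of the proteasome, and their mRNA was followed in primary mouse oligodendrocyte precursor cells (OPCs) during 3 days of differentiation into oligodendrocytes (OLs), with Day 0 as the start. The members are the rows whose symbol begins with Psma, Psmb, Psmc, Psmd, Psme, Psmf or Psmg followed by a digit, with pseudogenes left out, and 49 of the 23427 genes in the table meet this rule. One of the 49, Psmc3ip, encodes a meiotic recombination factor named after a protein partner, so it was kept apart and 48 genes remain. The label subunit is too narrow for these 48, since 7 are assembly factors and 1 is an inhibitor. All libraries came from wild-type (WT) C57BL/6J cells, which the methods describe as immunopanned with a PDGFRα antibody out of the cortex, with 3 pups taken at postnatal day 7. Day 0 is the proliferating culture in PDGF-AA and CNTF, and the later days count from the removal of PDGF-AA, when the thyroid hormone T3 was added. Each day had 2 replicates, which the methods call independent, for 8 libraries in all. The methods describe no neurons added to the purified cells, so the series models differentiation in a dish and not the myelination of axons.

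The proteasome is the large protease that degrades ubiquitin-tagged proteins in the nucleus and cytosol. Its 20S core stacks 2 outer rings of alpha subunits, which form the gate, and 2 inner rings of beta subunits, of which Psmb5, Psmb6 and Psmb7 carry the active sites. The 19S particle caps the core to make the 26S proteasome, with a base of ATPases that unfold substrates and a lid that removes ubiquitin. Interferon replaces the active subunits with Psmb8, Psmb9 and Psmb10, which make the immunoproteasome and favor peptides for antigen presentation, and alternative caps (Psme1 to Psme4) open the gate without ubiquitin.

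Expression was given as FPKM, in which fragment numbers are divided by transcript length and by the mapped total of a library, so levels can be compared between genes. The depth was read from the steps between low values, which place it between about 950000 and 1520000 fragments per library, with both Day 3 libraries lowest. Of the markers of the labelled cells, Pdgfra, the receptor used for panning, fell from 490 and 396 FPKM on Day 0 to 29.2 and 6.53 at Day 3, and Mbp, a myelin protein gene, rose from 65.2 and 82.2 to 8753 and 11945 FPKM. The 7 astrocyte markers summed to between 120 and 167 FPKM in the replicate 1 libraries and between 354 and 952 FPKM in the replicate 2 libraries. The 5 neuronal markers summed to 64.4 and 31.4 FPKM on Day 0 and to 233 and 115 FPKM at Day 3. Of the 3 that passed the filter, Tubb3 differed by 2.15 on the log2 scale between these days, Snap25 by -1.79 and Syt1 by -0.50. Of 9 microglial markers only P2ry12 passed the filter, and all 9 summed to at most 2.51 FPKM, while 5 proliferation markers summed to 938 and 708 FPKM on Day 0 and to at most 50.9 FPKM later. The median gene was lower by 0.31 on the log2 scale on Day 3 than on Day 0, and by 0.04 after median ratio scaling. In whole cultures, fewer cells of a type and less RNA per cell cannot be told apart.

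The constitutive 26S proteasome was expressed at high levels throughout differentiation. The 31 constitutive subunits of the 26S particle (7 alpha, 7 beta, 6 base ATPases, 3 other base subunits and 8 lid subunits) lay between 34.6 and 170 FPKM in every library. They summed to between 2544 and 3200.1 FPKM, and the 48 genes together made up between 0.761% and 0.875% of all FPKM in a library. Psmb1, a beta subunit without an active site, had the highest mean on each of the 4 days (150.6, 147, 159 and 146 FPKM). Psmd11, a lid subunit, had the lowest mean on each day (50.2, 39.5, 45.7 and 44.3 FPKM). The next lowest mean was that of Psmd12, also a lid subunit, on Day 0, Day 1 and Day 2 and of Psmc6 on Day 3. On Day 0 the libraries of Psmd12 (54.5 and 53.4 FPKM) lay between those of Psmd11 (54.6 and 45.8 FPKM), so the order of these neighbours is within the replicate spread. The value of each of these 31 genes in a library rests on roughly 65 to 657 fragments (median 161). This is far more than for the low members described further on.

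**Figure D1:**
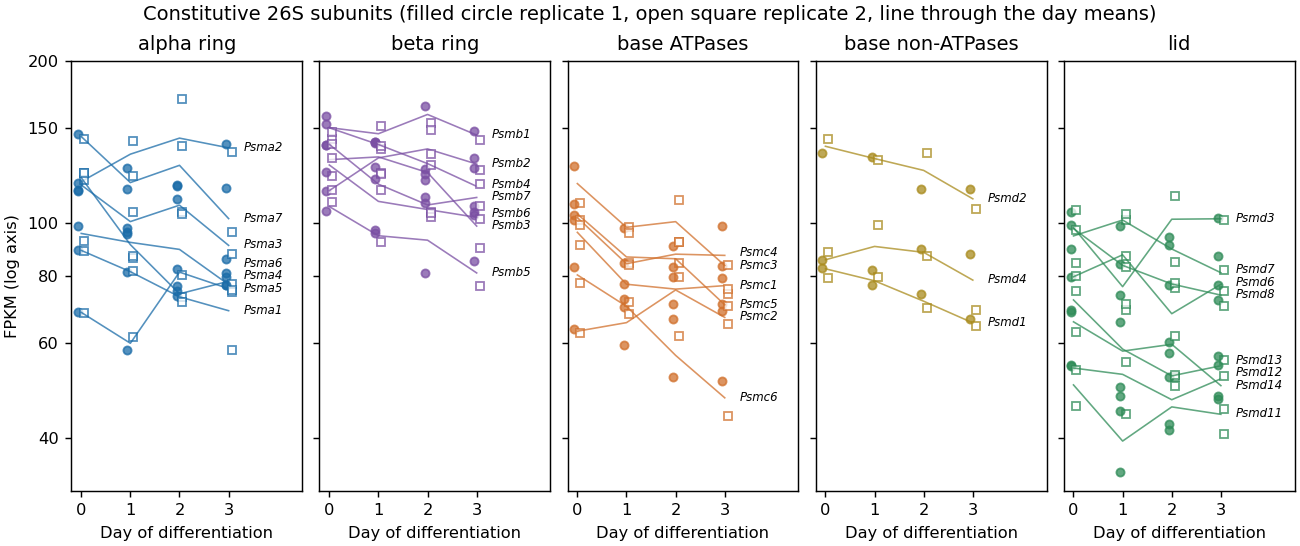
FPKM (log axis) of the 31 constitutive 26S subunits against day, in a panel for each subcomplex. Filled circles are replicate 1, open squares replicate 2, and lines join the day means. All points lie between 34.6 and 170 FPKM, Psmb1 is the highest mean on each day and Psmd11 the lowest, and Psmc6 and Psma6 decline most.

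From Day 0 to Day 3, 13 of the 45 proteasome genes that passed the filter were called lower and 1, Psme4, was called higher (limma on log2(FPKM + 1), Benjamini-Hochberg adjusted p under 0.05). Over all 12208 genes tested, the same comparison called 26.3% lower and 12% higher, so the members' share of lower calls is near the background and that of higher calls is below it. With Psmc3ip included, 14 of 46 were lower. The median difference of the 45 genes was -0.33, beside -0.31 for all genes, and it was -0.32 for the 31 constitutive subunits. The genes called lower were 7 constitutive subunits (Psma3, Psma6, Psma7, Psmc3, Psmc5, Psmc6 and Psmd8), the immunoproteasome subunit Psmb8, the activators Psme1, Psme2 and Psme3, and the assembly chaperones Psmg2 and Psmg4. The calls on constitutive subunits depended on the scale. With median ratio scaling none of the 31 was lower, and Psma5 and Psmb2 were higher. The median difference of the 31 was then -0.01, beside -0.04 for all genes. With quantile normalization 6 of the 31 were lower, namely Psma6, Psma7, Psmb4, Psmc3, Psmc5 and Psmc6. The same setting called 2194 of all 12208 genes lower. There the median of the 31 was -0.32, beside -0.03 for all genes, and 6 of the 31 lay above the latter. With median ratio scaling 5 of the 45 genes stayed lower, namely Psme1, Psme2, Psme3, Psmg4 and Psmb8, and Psme4 stayed higher. That scaling called 2047 of all 12208 genes lower and 2135 higher. Psmb8 passed the filter through Day 0 alone and is listed at 0 on Day 3, which no scaling can move, so its call supports nothing. Both Day 3 libraries lay below both Day 0 libraries for 28 of the 45 genes and for 20 of the 31 constitutive subunits, beside 48.6% of all genes. The 2 days did not overlap in the higher direction for 8 of the 45, beside 22.8% of all genes.

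**Figure D2:**
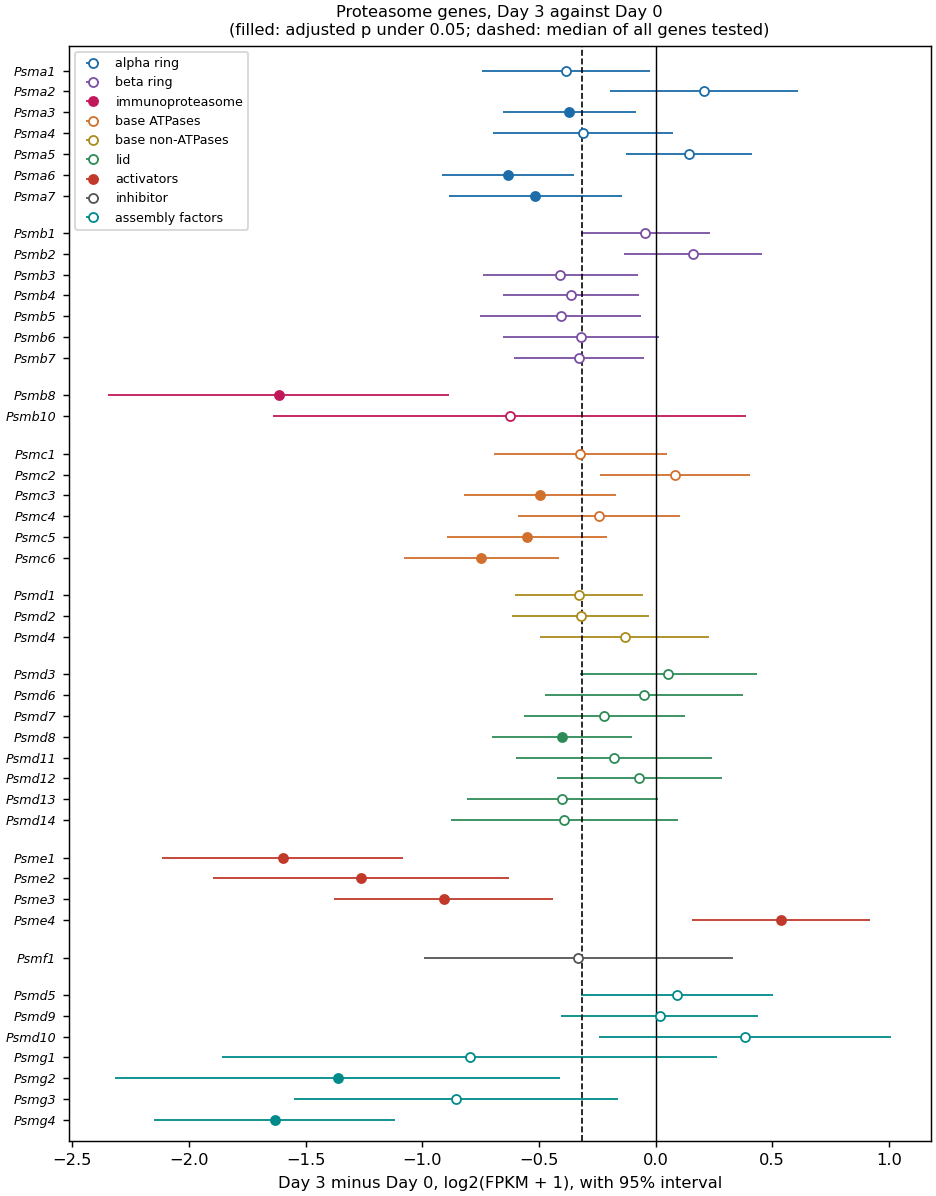
Difference between Day 3 and Day 0 on the log2(FPKM + 1) scale for the 45 proteasome genes tested, with 95% limma intervals, grouped and colored by subcomplex. Filled points have an adjusted p under 0.05, and the dashed line is the median of all 12208 genes (-0.31). The constitutive subunits gather around that line, while Psmb8, Psme1, Psme2, Psmg2 and Psmg4 lie far to its left and Psme4 to its right.

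In the alpha ring, the most positive and the most negative difference belonged to Psma2 and Psma6, which both form part of the ring that gates the core. Psma6 was at 119 and 124 FPKM on Day 0, 95.7 and 87.1 at Day 1, 76.6 and 71.6 at Day 2, and 80.9 and 75.4 at Day 3. Its Day 0 libraries stood above all 6 later ones, and the difference from Day 0 to Day 3 was -0.63 ± 0.12 (SE, log2 scale; adjusted p = 0.00481). With median ratio scaling the difference was -0.32 and was not called (adjusted p = 0.0644). Psma2 was at 115 and 124 FPKM on Day 0, 127 and 142 at Day 1, 118 and 169.9 at Day 2, and 141 and 136 at Day 3. All later libraries except Day 2 replicate 1 exceeded both Day 0 libraries, but its difference of 0.21 ± 0.18 was not called (adjusted p = 0.382). Psma2 overlaps AW209491 on the same strand in the annotation, so fragments of the 2 genes may be mixed. Psma3 (-0.37) and Psma7 (-0.52) were also called lower, with adjusted p of 0.0458 and 0.0361, and the other 3 alpha genes lay between -0.38 and 0.14 without a call.

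The 3 active-site subunits of the constitutive core had slightly lower values late, and none was called. Psmb5, which carries the chymotrypsin-like activity, was at 106 and 109 FPKM on Day 0, 97.3 and 92.5 at Day 1, 81.1 and 105 at Day 2, and 85.3 and 76.7 at Day 3. Psmb6, with the caspase-like activity, was at 125 and 132 FPKM on Day 0, 96.0 and 124 at Day 1, 109 and 103 at Day 2, and 104 and 102 at Day 3. Psmb7, with the trypsin-like activity, was at 139.9 and 140.5 FPKM on Day 0, 121 and 115 at Day 1, 112 and 105 at Day 2, and 105 and 118 at Day 3. In each of the 3 genes both Day 3 libraries lay below both Day 0 libraries, as in 48.6% of all genes. The differences were -0.41 for Psmb5, -0.32 for Psmb6 and -0.33 for Psmb7, with adjusted p of 0.0642, 0.117 and 0.0648, and with median ratio scaling they shrank to -0.09, -0.00438 and -0.0119. Psmb7 overlaps Nek6 on the opposite strand, and it is not given in the sources used here whether strand was used in counting. Of the other beta subunits, Psmb2 had the most positive difference, from 115 and 115 FPKM on Day 0 to 132 and 126 at Day 3, and Psmb3 the most negative, from 140.0 and 123 to 108 and 89.96 FPKM. Neither was called (0.16 and -0.41, adjusted p = 0.352 and 0.0560), although Psmb3 was called with the replicate number as a block (adjusted p = 0.0408). On Day 1 and Day 2, Psmb2 lay between 126 and 149 FPKM and Psmb3 between 120.2 and 142 FPKM.

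Among the 6 base ATPases, which form the ring that threads substrates into the core, 3 were called lower. Psmc6 declined steadily and was at 82.9 and 77.6 FPKM on Day 0, 72.5 and 68.0 at Day 1, 52.0 and 61.9 at Day 2, and 51.0 and 44.0 at Day 3. The libraries of Day 0 stood above those of Day 1, and these above all 4 later ones. The difference from Day 0 to Day 3 was -0.75 ± 0.14 (adjusted p = 0.00471), and -0.43 with median ratio scaling (adjusted p = 0.0525). Psmc2 had the most positive difference of the ring, with 63.7 and 62.7 FPKM on Day 0, 59.5 and 71.5 at Day 1, 70.9 and 79.7 at Day 2, and 68.9 and 65.0 at Day 3, and it was not called (0.08 ± 0.14, adjusted p = 0.667). Psmc3 (-0.49, adjusted p = 0.0261) and Psmc5 (-0.55, adjusted p = 0.0202) were the other 2 called lower, and Psmc3 overlaps Slc39a13 on the opposite strand over 4579 bases. Psmc1 and Psmc4 had differences of -0.32 and -0.24 and were not called.

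None of the 3 other base subunits was called from Day 0 to Day 3. Psmd1, a large scaffold of the base, had the most negative difference, with 85.5 and 79.3 FPKM on Day 0, 76.9 and 79.7 at Day 1, 73.9 and 69.7 at Day 2, and 66.4 and 64.4 at Day 3. The difference was -0.33 ± 0.12 (adjusted p = 0.0617), and Htr2b lies within the same interval on the opposite strand. On the same strand, Gm21972 and Gm37914 overlap Psmd1 over 5515 and 2679 bases, so fragments of these genes may be mixed. Psmd4, a receptor for ubiquitin chains, had the difference closest to 0, with 82.8 and 88.5 FPKM on Day 0, 82.0 and 99.3 at Day 1, 89.8 and 87.0 at Day 2, and 87.9 and 69.2 at Day 3. Its days overlapped, and its difference of -0.13 ± 0.16 was positive in 3 of 17 alternatives, among them 0.18 with median ratio scaling.

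In the lid, which holds the deubiquitinase Psmd14, 1 of 8 subunits was called. Psmd8 was at 89.6 and 106 FPKM on Day 0, 84.1 and 83.2 at Day 1, 77.1 and 77.4 at Day 2, and 76.95 and 70.4 at Day 3. Its mean was lower at every step and the days did not overlap, with a difference of -0.40 ± 0.13 (adjusted p = 0.0419) that was lost in 13 of 17 alternatives. Psmd3 had the most positive difference and was at 99.3 and 97.2 FPKM on Day 0, 65.7 and 87.0 at Day 1, 91.4 and 112 at Day 2, and 102 and 102 at Day 3. Both Day 1 libraries were below Day 0, and the difference between Day 3 and Day 0 was 0.05 ± 0.17 (adjusted p = 0.816). Psmd14 had a difference of -0.39 (adjusted p = 0.179), and the remaining 5 lid genes lay between -0.40 and -0.05.

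Promoters of the members were searched because transcription factors are known to act on proteasome genes as a group. Nfe2l1, also called Nrf1, binds antioxidant response elements (core TGACNNNGC) in proteasome promoters when proteasome activity falls, and ETS factors bind a GGAA core, here searched as CCGGAAG. The window was the 250 bases before the annotated start in RefSeq (GRCm38.p6), on both strands, and 40 of the 48 genes had at least one such window. A gene with several annotated starts was counted where any of its windows held the letters. The ETS letters were present in 12 of the 40 genes with a window (30%), beside 7.83% of all genes and 16.0% of the genes tested. The antioxidant core was present in 5 (12.5%), beside 11.5% of all genes and 14.0% of those tested. The letters CCAAT were present in 14 (35.0%, beside 41.4% of genes tested), and an interferon-type GAAANNGAA in 3 (7.50%, beside 6.83%), namely Psmb3, Psmd4 and Psmd9. Each motif was counted on its own, also where matches overlap. The 7 ETS matches that lie outside annotated exons are shown on the strand of the gene, since the share of this motif stood furthest above that of the genes tested, and capitals mark the motif in either orientation.
Psma6: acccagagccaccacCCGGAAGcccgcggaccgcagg
Psmc6: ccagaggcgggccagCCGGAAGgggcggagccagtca
Psmd2: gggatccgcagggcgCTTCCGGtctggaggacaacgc
Psmd4: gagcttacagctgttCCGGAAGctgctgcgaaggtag
Psmd11: aacgcgagggcgggtCTTCCGGgtgt
Psme3: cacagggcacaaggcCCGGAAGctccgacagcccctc
Psmg1: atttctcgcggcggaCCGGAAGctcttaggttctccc

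These stretches lie at chr12:55398678-55398714 (plus strand) for Psma6, chr14:45329709-45329745 (plus) for Psmc6, chr16:20651611-20651647 (plus) for Psmd2, chr3:95042718-95042754 (minus) for Psmd4, chr11:80428589-80428614 (plus) for Psmd11, chr11:101316091-101316127 (plus) for Psme3, and chr16:95991008-95991044 (minus) for Psmg1. The first base of the motif lay between 11 bases (Psmd11) and 132 bases (Psma6) before the start. The Psma6 stretch belongs to a second RefSeq start inside the gene, and the window at its first start holds no ETS letters. The 12 genes with these letters include members that were called lower (Psma6, Psmc6 and Psme3), the member that was called higher (Psme4) and 8 without a call. The 5 antioxidant cores are printed in the same way, since this element is the known target of Nfe2l1.
Psmb5: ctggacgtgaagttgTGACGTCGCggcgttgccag
Psmb6: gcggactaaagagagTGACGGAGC
Psmc6: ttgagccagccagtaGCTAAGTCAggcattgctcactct
Psmd12: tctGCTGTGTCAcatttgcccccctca
Psmd9: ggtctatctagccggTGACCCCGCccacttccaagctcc

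They lie at chr14:54618023-54618057 (minus strand) for Psmb5, chr11:70525333-70525356 (plus) for Psmb6, chr14:45329582-45329620 (plus) for Psmc6, chr11:107479278-107479304 (plus) for Psmd12 and chr5:123228144-123228182 (plus) for Psmd9. Psmc6 (difference -0.75, called) and Psmd12 (-0.07, not called) had both motifs. The Psmd9 start in RefSeq lies inside the longer gene interval of GENCODE. A match of letters is a description and shows no binding.

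Of the 4 activators, 3 were called lower and 1 higher from Day 0 to Day 3. Psme1 and Psme2 encode PA28α and PA28β, which together form the interferon-inducible ring that caps the core. Psme1 was at 40.7 and 34.2 FPKM on Day 0, 59.2 and 42.4 at Day 1, 37.8 and 36.1 at Day 2, and 14.1 and 9.62 at Day 3. Both Day 3 libraries stood far below all 6 earlier ones, and the Day 3 mean was 3.16-fold below Day 0 (difference -1.60 ± 0.23, adjusted p = 0.00106) and 3.12-fold below Day 2 (-1.59 ± 0.23, adjusted p = 0.0396). Psme1 was 1 of the 6 genes called lower from Day 2 to Day 3 (0.0491% of those tested), a call that was lost in 11 of 17 alternatives, while that from Day 0 was called in 17 of 17.

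Psme2 followed Psme1, with 26.2 and 32.4 FPKM on Day 0, 40.9 and 45.7 at Day 1, 32.0 and 19.3 at Day 2, and 14.3 and 9.31 at Day 3. Both Day 1 libraries were the highest and both Day 3 libraries the lowest. The Day 3 mean was 2.48-fold below Day 0 (-1.26 ± 0.28, adjusted p = 0.00827), a call lost without Day 0 replicate 2 or without Day 3 replicate 2 (adjusted p up to 0.0683). The Day 1 means of Psme1 and Psme2 were 1.36 and 1.48 times those of Day 0, and neither difference was called (0.42 and 0.56, adjusted p = 0.285 and 0.244). The Psme1 and Psme2 genes lie close together on chromosome 14 (GRCm38 55578123 to 55581529, plus strand, and 55587441 to 55591113, minus strand), and Psme1 shares 14 bases with Emc9 on the opposite strand. The values of Psme1 on Day 3 rest on about 17 and 10 fragments and those of Psme2 on about 15 and 9.

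Psme3, which encodes the nuclear activator PA28γ, was at 66.0 and 66.9 FPKM on Day 0, 55.4 and 44.5 at Day 1, 40.8 and 39.9 at Day 2, and 43.1 and 28.3 at Day 3. Every later library lay below Day 0, and the Day 3 mean was 1.86-fold lower (-0.91 ± 0.20, adjusted p = 0.00916), which was lost without either Day 0 library (adjusted p up to 0.0581). Psme4, which encodes the nuclear activator PA200, was the only member called higher. It was at 18.5 and 18.5 FPKM on Day 0, 19.5 and 20.5 at Day 1, 22.0 and 17.6 at Day 2, and 26.9 and 27.7 at Day 3. Both Day 3 libraries stood above all 6 earlier ones, with a mean 1.48 times that of Day 0 (0.54 ± 0.17, adjusted p = 0.0349), and 0.84 with median ratio scaling (adjusted p = 0.00509). The call was lost in 5 of 17 alternatives, among them each that left out a Day 0 or Day 3 library. Summed over the 4 activators, FPKM was 151 and 152 at Day 0 and 98.3 and 74.9 at Day 3.

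**Figure D3:**
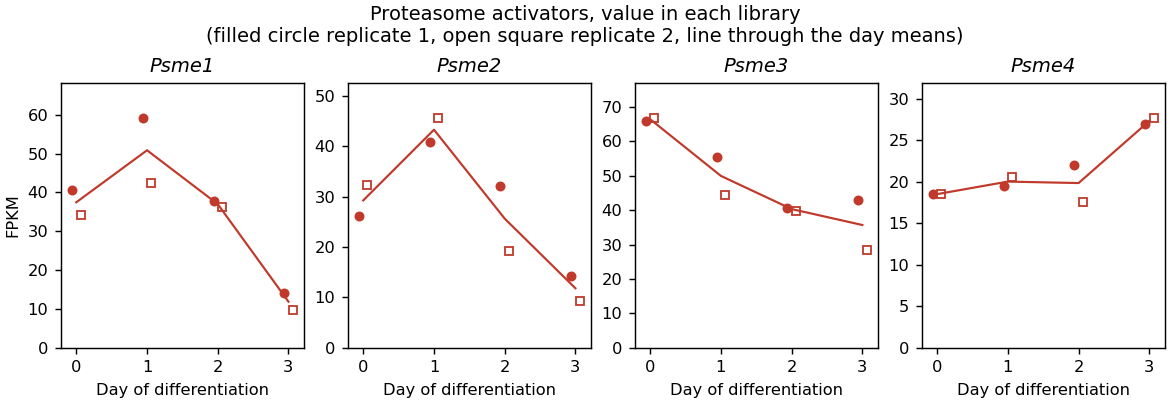
FPKM of the activators Psme1, Psme2, Psme3 and Psme4 against day, in a panel each with an axis from 0. Filled circles are replicate 1, open squares replicate 2, and lines join the day means. Psme1 and Psme2 are highest on Day 1 and lowest on Day 3, Psme3 declines from 66.0 and 66.9 FPKM, and Psme4 reaches 26.9 and 27.7 FPKM on Day 3.

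The immunoproteasome was near the limit of measurement, apart from Psmb10. Psmb8 was at 2.13 and 2.00 FPKM on Day 0, 0.667 and 0.639 at Day 1, and was listed at 0 in all 4 libraries of Day 2 and Day 3. These values correspond to about 4 and 3 fragments on Day 0 and 1 in each Day 1 library, close to the 3 fragments taken as the floor. With Day 0 alone carrying it past the filter, a fall was the only difference it could show. Its difference from Day 0 to Day 3 was called (-1.62 on the log2(FPKM + 1) scale, adjusted p = 0.00519), and it was -4.44 with a pseudocount of 0.1, so no fold change is given. Psmb9 was listed at 1.02 and 0.932 FPKM on Day 2, at 0 in the other 6 libraries, and rests on 1 fragment in each of the 2 libraries. Psmb10 was at 10.8 and 8.34 FPKM on Day 0, 9.63 and 10.5 at Day 1, 11.0 and 4.73 at Day 2, and 3.61 and 9.04 at Day 3. Its replicates differed more on Day 2 and Day 3 than its days did, and its difference of -0.62 ± 0.44 was not called (adjusted p = 0.295). Psmb8 and Psmb10 each overlap an antisense gene, and Psmb9 overlaps Tap1 by 212 bases.

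Relative to the constitutive subunit each one replaces, Psmb8 stood at 2.02% and 1.83% of Psmb5 at Day 0, and Psmb9 at 0.931% and 0.905% of Psmb6 at Day 2. Psmb10 stood at between 3.44% and 9.83% of Psmb7. The slope on day of the log2 ratio was tested over all arrangements of the libraries (exact permutation test, two-sided, Benjamini-Hochberg over the 3 pairs). It was -0.12 per day for Psmb10 to Psmb7 (adjusted p = 0.437 in the exact test). For Psmb8 to Psmb5 it was -0.43 and for Psmb9 to Psmb6 0.20, given as descriptions without a p, since both immunoproteasome genes rest on 0 to 4 fragments in every library.

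**Figure D4:**
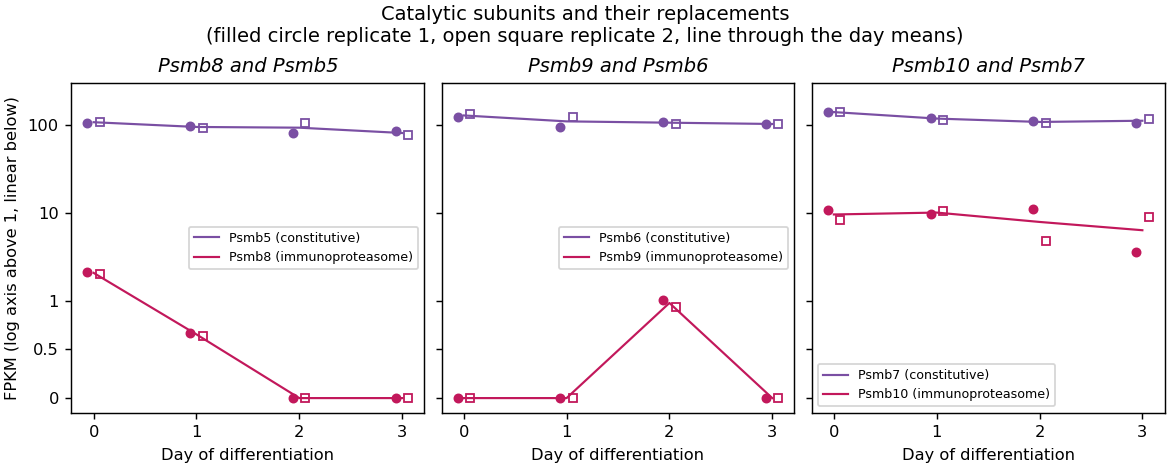
FPKM of each immunoproteasome subunit and of the constitutive subunit it replaces against day, on an axis that is logarithmic above 1 and linear below. Filled circles are replicate 1, open squares replicate 2, and lines join the day means. The constitutive subunits stay between 76.7 and 140.5 FPKM, Psmb10 lies between 3.61 and 11.0 FPKM, and Psmb8 and Psmb9 are at 0 in 4 and 6 libraries.

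The subunits of specialized proteasomes were not detectable at this depth. Psmb11, the beta subunit of thymic epithelium, was listed at 0.154 FPKM in Day 0 replicate 1 and at 0 in the other 7 libraries. Psma8, the testis alpha subunit, was listed at 0.481 FPKM in Day 0 replicate 2 and at 0 elsewhere. Each value is about 1 fragment, and neither gene passed the filter. Psmf1, which encodes the inhibitor PI31, was at 13.4 and 9.89 FPKM on Day 0, 11.7 and 7.51 at Day 1, 9.74 and 9.33 at Day 2, and 10.9 and 7.37 at Day 3. Replicate 1 was the higher on every day, the days overlapped, and the difference of -0.33 ± 0.29 was not called (adjusted p = 0.394) and was 0.01 with quantile normalization.

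Among the assembly factors, the calls fell on chaperones of the alpha ring. Psmg1 to Psmg4 encode the chaperones PAC1 to PAC4, which help the alpha ring form, and Psmd5, Psmd9 and Psmd10 encode chaperones of the base. Psmg4 was at 31.4 and 23.5 FPKM on Day 0, 26.6 and 30.5 at Day 1, 14.1 and 9.99 at Day 2, and 8.47 and 7.72 at Day 3. The first 2 days overlapped and stood above the last 2. The mean fell 2.37-fold from Day 1 to Day 2 (-1.20 ± 0.23, adjusted p = 0.0315) and was 3.39-fold lower on Day 3 than on Day 0 (-1.63 ± 0.23, adjusted p = 0.000975). The middle step called 1.73% of all genes lower and Psmg4 alone among the 45, a call held in 9 of 17 alternatives, while the call from Day 0 to Day 3 was held in 17 of 17. Its transcript is short, and the values on Day 3 rest on about 5 and 4 fragments.

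Psmg2 had lower values from Day 1 on, with 22.2 and 26.9 FPKM on Day 0, 6.93 and 10.3 at Day 1, 6.98 and 9.22 at Day 2, and 5.19 and 14.8 at Day 3. Both Day 0 libraries exceeded all 6 later ones. The Day 1 mean was 2.84-fold below Day 0 (-1.42 ± 0.42), which was not called (adjusted p = 0.0606) but was with the replicate block (adjusted p = 0.0122), and the difference on Day 3 was called (-1.36 ± 0.42, adjusted p = 0.0323) and was lost in 9 of 17 alternatives. Psmg1 was at 13.9 and 19.0 FPKM on Day 0, 13.2 and 15.1 at Day 1, 2.50 and 9.91 at Day 2, and 8.38 and 9.54 at Day 3, and its difference of -0.80 ± 0.46 was not called (adjusted p = 0.205). Psmg3 was at 21.8 and 17.5 FPKM on Day 0, 15.5 and 11.2 at Day 1, 8.81 and 8.95 at Day 2, and 14.2 and 7.46 at Day 3. Its difference of -0.85 ± 0.30 missed the threshold (adjusted p = 0.0551) and passed it with the replicate block (0.0217), and it overlaps Gm26938 on the opposite strand. All 4 chaperones of the alpha ring had lower values in both Day 3 libraries than in both Day 0 libraries, an order met by 48.6% of all genes.

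Of the 3 base chaperones none was called in any comparison of days. Psmd10, also called gankyrin, had the most positive difference of the assembly factors, with 15.2 and 12.3 FPKM on Day 0, 8.40 and 12.4 at Day 1, 12.4 and 17.4 at Day 2, and 15.3 and 21.5 at Day 3 (0.38 ± 0.27, adjusted p = 0.299). Psmd5 lay between 20.1 and 32.2 FPKM and Psmd9 between 10.4 and 15.9 FPKM, with differences of 0.09 and 0.02 from Day 0 to Day 3. Psmd9 shares 10921 bases with Hpd on the opposite strand.

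**Figure D5:**
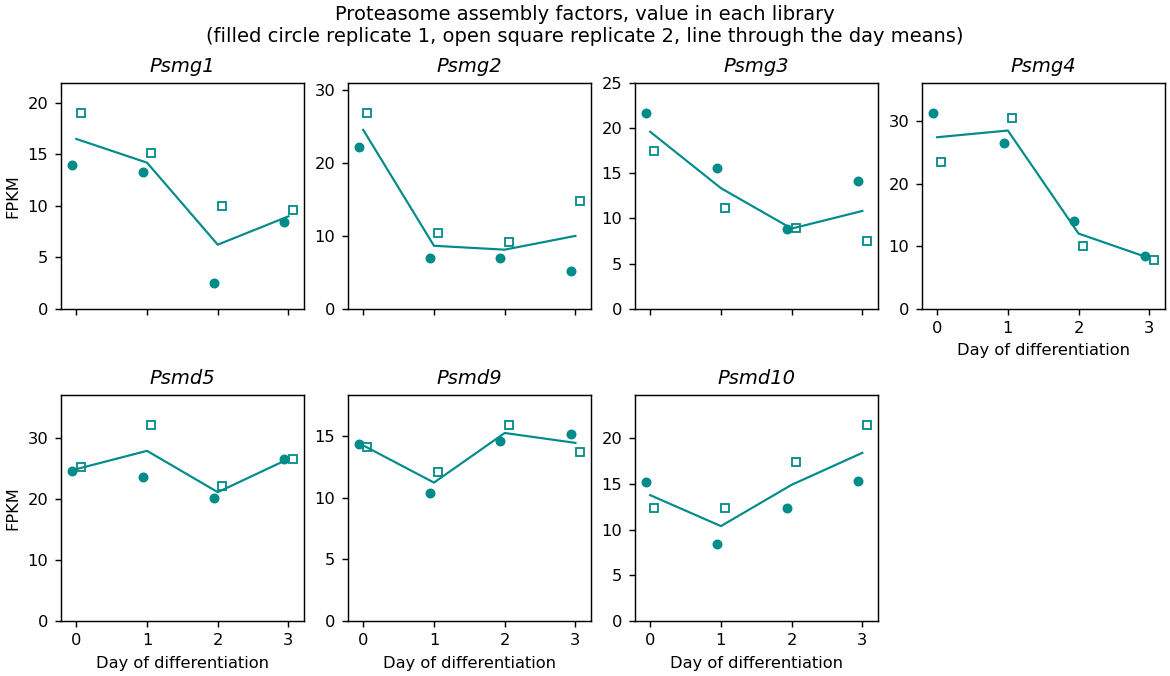
FPKM of the 7 assembly factors against day, in a panel each with an axis from 0. Filled circles are replicate 1, open squares replicate 2, and lines join the day means. Psmg1 to Psmg4 have both Day 3 libraries below both Day 0 libraries, Psmg2 is lower from Day 1 and Psmg4 from Day 2 on, and Psmd5, Psmd9 and Psmd10 have no such order.

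Single steps called few members. From Day 0 to Day 1, 0 of the 45 proteasome genes were called by limma in either direction. Over all genes tested, 5.04% were called higher and 7.56% lower. An unadjusted limma p under 0.05 was met by 3 of the 45, beside 3269 of all 12208 genes. Of the 49 rows of the rule, Psmc3ip was the only one called in that step. It was at 18.8 and 21.8 FPKM on Day 0, 0.839 and 1.61 at Day 1, 0.845 and 0.773 at Day 2, and 2.83 and 1.07 at Day 3, a difference of -3.28 ± 0.37 from Day 0 to Day 1 (adjusted p = 0.00135) and of -2.91 ± 0.37 to Day 3 (adjusted p = 0.000649). Its drop coincided with that of the 5 proliferation markers, all called lower in the same step, and their part in it was not tested. The values of Psmc3ip rest on about 37 and 34 fragments on Day 0. In each later library they rest on about 1 to 4, near the 3 fragments taken as the floor, so the size of its differences is uncertain. Psmc3ip overlaps Mlx by 385 bases on the opposite strand. From Day 1 to Day 2, Psmg4 was the only member called and none was higher, beside 2.16% of all genes. From Day 2 to Day 3, Psme1 was the only member called and none was higher, beside 0.246% of all genes. The median difference of the 45 genes was -0.19, -0.07 and -0.10 over the 3 steps, beside -0.07, -0.19 and -0.02 for all genes. The 4 comparisons share libraries and are not independent.

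Over all 4 days, 10 of the 45 genes had a falling slope of log2(FPKM + 1) on day and 0 a rising one (exact permutation test over all arrangements, two-sided, adjusted over all genes), beside 15.9% falling and 6.93% rising of all genes. The steepest was Psmg4, with -0.61 per day, and Psmb8 had -0.56, which its filter and its zeros fix as a fall. Psmc6 (-0.25 per day) and Psmd8 (-0.13) had the smallest p the arrangements can give, 0.000794 in the exact permutation test, and an adjusted p of 0.0145. The others were Psme3 (-0.30), Psma6 (-0.22), Psma1 (-0.13), Psmb4 (-0.12), Psmd1 (-0.11) and Psmd2 (-0.10). With the libraries rearranged only within each replicate number, as a block, 6 genes had a falling slope (Psmd1, Psme3, Psmc5, Psmc6, Psmb4 and Psmd8). Of all 12208 genes, 1299 had a falling slope in that setting. With median ratio scaling Psmg4 and Psmb8 remained, Psme4 rose, and the slopes of Psmd1 and Psmd2 turned to 0.00296 and 0.0101 per day, neither called. Psme1 and Psme2, which were highest on Day 1, had slopes of -0.52 and -0.46 per day that were not called (exact permutation adjusted p = 0.0942 and 0.114).

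No proteasome gene was called between the 2 replicate series. In the model with the day as a term, 0 of the 45 genes were called by limma between replicate 2 and replicate 1. Over all genes tested, 0.68% were called higher and 0.369% lower. An unadjusted limma p under 0.05 was met by 6 of the 45, beside 1447 of all 12208 genes. The smallest adjusted p was 0.269, for Psmg2, which was higher by 0.62 ± 0.20 in replicate 2. The replicate 2 libraries held more RNA of astrocyte markers, of which 5 of 7 were called higher in them. Mag, 1 of 6 OL markers, was also called higher in replicate 2. Pdgfra, 1 of 5 OPC markers, and Tubb3, 1 of 3 neuronal markers tested, were called lower.

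Of 10 proteasome partners outside the Psm symbols, 3 were called lower from Day 0 to Day 3 (Pomp, Txnl1 and Usp14) and 1 higher (Zfand5), with a median of -0.43. These counts are near the 26.3% lower and 12% higher of all genes, whose median was -0.31. Usp14, a deubiquitinase that binds the 19S base, had the largest fall, from 28.8 and 31.6 FPKM on Day 0 to 12.7 and 13.1 at Day 3 (-1.17 ± 0.16, adjusted p = 0.00101). Zfand5, an activator of the 26S proteasome, had the largest rise, from 10.2 and 13.4 to 20.4 and 20.8 FPKM (0.76 ± 0.18, adjusted p = 0.0121). Of 4 genes that control proteasome transcription, Nfe2l2, the transcription factor also called Nrf2, rose from 9.77 and 10.6 to 21.5 and 31.7 FPKM (1.28 ± 0.31, adjusted p = 0.0120). Ngly1, the enzyme that deglycosylates Nfe2l1, had the lowest difference of the 4 (-0.20, not called), and Nfe2l1 itself lay between 23.0 and 38.7 FPKM without a call.

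Of 14 ubiquitin and delivery genes, 6 were called lower and 0 higher from Day 0 to Day 3, beside 26.3% and 12% of all genes, and their median of -0.25 lay above the -0.31 of all genes. Rps27a, which encodes ubiquitin fused to a ribosomal protein, had the largest fall, from 559 and 619 FPKM on Day 0 to 186 and 245 at Day 3 (-1.46 ± 0.18, adjusted p = 0.000561), and Ubqln1, a shuttle factor, the largest difference upward (0.37 ± 0.16, adjusted p = 0.109). Of 10 antigen presentation and interferon genes, Irf1 and Tap1 were called lower and 0 higher, with a median of -0.30. Tap1, the peptide transporter encoded beside Psmb9, was listed at 1.55 and 3.87 FPKM on Day 0, at 0 and 0.819 at Day 1, and at 0 in the 4 later libraries. It passed the filter through Day 0 alone, so it could only be called lower. Nlrc5 had the highest difference of these 10 (0.82 ± 0.45, adjusted p = 0.185), at levels of at most 2.55 FPKM.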

How the data were processed

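The mRNA of 8 libraries (4 days, 2 replicates each) was analysed. The authors sequenced stranded mRNA libraries in paired ends, used OmicSoft ArrayStudio on the reads and deposited the FPKM of 23427 genes, a column per library. Per the labels the build was mm10, and the aligner, the gene model and the use of strand in counting are not given in the sources used here. Labels and methods differ in the culture medium and the RNA kit. FPKM are not counts, so no count test was used.

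Days came from the labels. The 12208 genes that reached FPKM 1 in 2 or more libraries entered the test, which was limma 3.58.1 in R 4.3.3 on log2(FPKM + 1) (functions lmFit and eBayes, the latter with a trend), all 8 libraries in a fit and the day as a factor, with Benjamini-Hochberg adjustment over all genes and a threshold of 0.05. Fold changes on this scale understate those of low genes. The slope on day was tested by an exact permutation test over all arrangements of the libraries on the days (smallest p 0.000794) in Python 3.11.15 with numpy 2.4.6. The functions were tested on simulated data. Alternatives were a pseudocount of 0.1, no filter, FPKM of at least 10 in a library, equal sums of FPKM, quantile normalization, scaling by the median ratio, the replicate number as a block, a fit restricted to the 2 days, eBayes with no trend, and fits lacking 1 library. Each day has a library 1 and a library 2 in the labels. Replicate differences correlated between days (r from 0.164 to 0.285 over the 6 pairs of days), although neither labels nor methods say what a number shares. The main limma fit and the main slope test held no replicate term, so their calls ignore a possible pairing. The replicate number entered only as a block in the alternatives and in the comparison of the replicate series.

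Depth (950000 to 1520000 fragments) was estimated from the steps of low FPKM values and GENCODE M21 lengths, so fragment numbers are approximate, and values at or under 3 fragments were treated as not measurable. Gene positions came from GENCODE M21 (GRCm38) and promoters from RefSeq (GRCm38.p6).

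The members and gene lists were chosen with earlier results of these data known. Values in every library are given for the active-site and immunoproteasome subunits, activators, inhibitor and thymus and testis subunits, for the largest rise and fall of each other subcomplex, and for members called in the middle or last step. The remaining Psmg genes and Psmc3ip are named besides. Other members are given by range and counts.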

Additional observations from a re-analysis of the deposited data

How the results depend on the processing

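Depth limits the low members: values near 1 FPKM stand for few fragments, fewest on Day 3. Of all 12208 genes, 3207 were lower from Day 0 to Day 3 in the main fit. This count was 2532 with equal sums, 2047 with median ratio scaling and 2194 with quantile normalization. It was 3003 with eBayes without a trend and 3551 with the replicate block. Higher were 1460 genes in the main fit, 2135 with median ratio scaling and 1324 with eBayes without a trend. The count of members lower (13) was 7 with equal sums, 5 with median ratio scaling, 11 with quantile normalization and 7 with eBayes without a trend. It was 15 with the replicate block, which ended no call there. It ranged from 6 to 13 with a library left out, with 6 without Day 0 replicate 1, 6 without Day 0 replicate 2 and 7 without Day 3 replicate 2. The count higher (1, Psme4) was 3 with median ratio scaling and 0 with eBayes without a trend, and ranged from 0 to 1 with a library left out.

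From Day 0 to Day 1 the count lower (0) was 1 with no filter and with eBayes without a trend (Psmb8), with the filter at FPKM 10, the replicate block and only the days compared (Psmg2), and ranged from 0 to 1 with a library left out. From Day 1 to Day 2 the count higher (0) was 1 with no filter (Psmb9, 1 fragment in each library) and 1 with median ratio scaling (Psma5). The count lower (1, Psmg4) was 0 with no filter, only the days compared and eBayes without a trend, and 0 to 1 with a library left out. From Day 2 to Day 3 the count lower (1, Psme1) was 0 with a pseudocount of 0.1, no filter, only the days compared and eBayes without a trend, and 0 to 1 with a library left out. Each library left out of a step's own days ended the call of that step, apart from Day 2 replicate 1 for Psmg4 and Day 3 replicate 1 for Psme1. Libraries of other days also ended these calls. That of Psmg4 was lost without either Day 0 library, and that of Psme1 without any single library of Day 0 or Day 1.

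The count of falling slopes (10) was 5 with equal sums, 2 with median ratio scaling and 6 with the replicate block. Over all genes the count (1939) was 1364, 1039 and 1299 in the same settings. The count of rising slopes (0) was 1 (Psme4) with the filter at FPKM 10, equal sums, median ratio scaling and quantile normalization. The slopes of Psmd1 and Psmd2 reversed with median ratio scaling (0.00296 and 0.0101 per day, not called). The Psmb8 to Psmb5 slope ranged from -0.51 to -0.38 with a library left out (-0.38 and -0.40 without either Day 0 library) and is not read as a test, since Psmb8 rests on at most 4 fragments, the Psmb9 pair ranged from 0.15 to 0.30 and the Psmb10 pair from -0.20 to 0.02. Of 700 alternative values of named members and pairs, 7 changed sign. The cause of these changes was not tested.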
